A study of Arabidopsis thaliana with 12 samples.

Results

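The genes described here are 27 Arabidopsis thaliana genes whose hybridization signal was at least halved after a short exposure to light following a long dark period. Each was measured by 1 probe that the platform annotation assigns to that gene alone. Members were chosen from 692 probes that name 1 gene, on an array of 3439 probes, and are 27 different genes. After quantile normalization, a probe had to have a light minus dark mean of -1 or lower on the log2 scale, a mean log2 level above the 25th percentile of all probes (-1.47), and a negative difference in each of the number pairs 1 and 2, 3 and 4, and 5 and 6. These thresholds were met by 33 of the 692 probes, or 4.77%. Of 8 genes that the rule leaves out by name, 6 met them (CUTA, LpxA, CYN, LHB1B2, PRK and AT3G54210), which left 27. The other 2, GH9B8 and AT1G64510, lay below the level threshold. Because the light and dark values chose these genes, the light and dark levels and their mean differences are a description and carry no test.

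Wild-type plants of the Landsberg ecotype gave all samples. The 6 dark samples came from plants adapted to darkness for 12 h. The 6 light samples came from plants that spent 12 h in darkness and then received light for 30 min, and both groups share the dark period. A control kept in darkness for those 30 min was not analysed here, so an effect of light and one of time cannot be told apart. The labels name no cell type, so fewer cells of a type and less RNA per cell cannot be told apart. Whether the 6 samples of 1 group are separate plants or repeat readings is not stated in the labels.

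At the end of the night a green plant lives on stored starch, and its chloroplasts carry out no photosynthesis. On illumination, phytochromes and cryptochromes act on transcription in the nucleus, and restarting photosynthesis alters the redox state and the sugars of the cell. The amount of a transcript reflects both its synthesis and its decay, and hybridization reads only the amount.

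The deposited values are intensities from 0 to 100 whose reference is not given in the sources used here. Column totals ranged over 3247 to 3321 for dark arrays and 3532 to 3666 for light arrays, and column medians over 0.443 to 0.491 and 0.666 to 0.687. Signal thus stood higher on the light arrays for most probes, and the median difference of all probes as deposited was 0.44 on the log2 scale. After quantile normalization it was 0.01. Differences below are of normalized log2 values, while intensities are those deposited, so the ratio of the intensities can differ from the difference beside it. Levels of different probes are not compared as amounts of RNA.

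Together the 27 probes held 1.92% ± 0.207 (SD, n = 6) of the summed intensity of a dark array and 0.592% ± 0.0270 (SD, n = 6) of a light array. Without AT1G62250, the brightest of them, the shares were 1.53% ± 0.158 (SD, n = 6) and 0.549% ± 0.0280 (SD, n = 6). Mean dark intensities of the 27 ran from 0.459 to 12.5, with a median of 0.892. Mean light intensities ran from 0.244 to 3.03, with a median of 0.558. In the dark 11 of the 27 lay among the 343 brightest probes of the array, and 3 lay below the median probe. In light 2 were among the 343 brightest and 17 lay below the median probe. The median log2 difference of the 27 was -1.27, against 0.01 over all 3439 probes. By size, 3 genes were at least 4-fold lower in light, 8 were between 2.5-fold and 4-fold lower, and 16 were less than 2.5-fold lower.

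**Figure D1:**
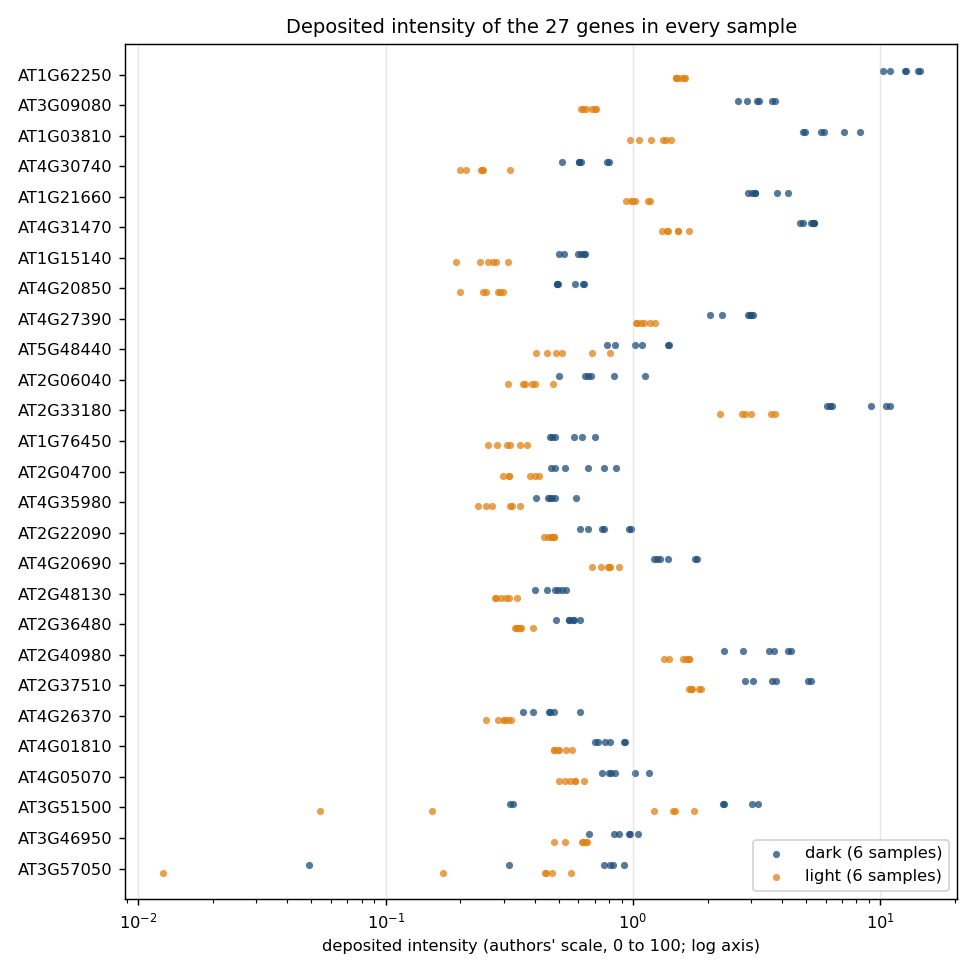
Deposited intensity of the 27 genes in each of 12 samples, on a log axis, with 1 point per sample (blue, dark; orange, light) and genes ordered by the size of their normalized difference. In 24 genes every light point lies to the left of every dark point, and AT3G51500 and AT3G57050 scatter more within each group than between the groups.

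**Figure D2:**
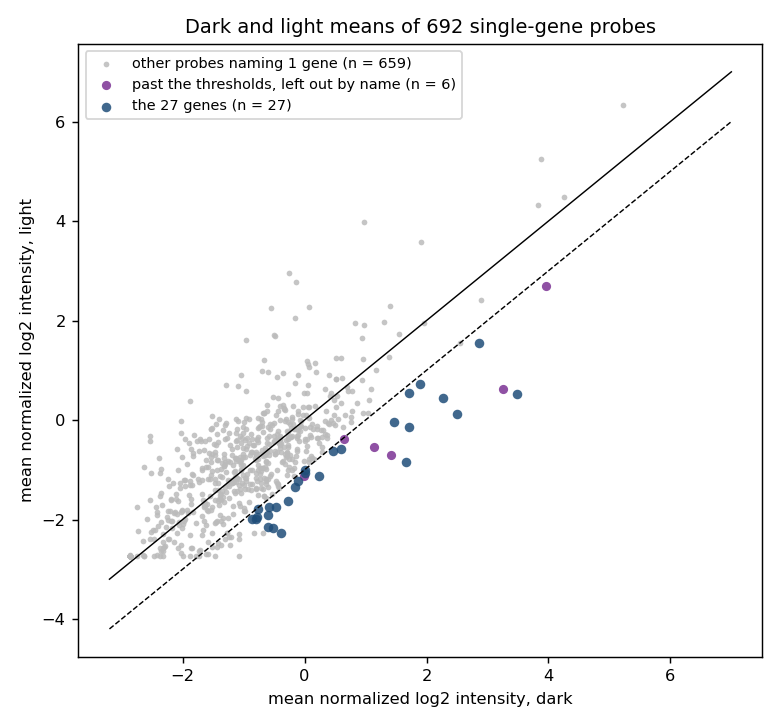
Mean normalized log2 intensity in the dark (horizontal axis) and in light (vertical axis) for the 692 probes that name 1 gene. The solid line marks equal means and the dashed line a difference of -1, on or below which the 27 genes (blue) lie by the way they were chosen. The 6 probes in purple also met the thresholds and were left out by name.

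The largest difference belonged to AT1G62250, for which the reference table gives a locus number and no descriptive name. Its dark intensities were lowest at 10.3, 12.6 at the median and 14.4 at the highest. Its light intensities ran from 1.49 through a median of 1.54 to 1.61. The groups lay far apart, and the 6 light values differed among themselves by little. The log2 difference was -2.96 ± 0.19 (SD of the 6 same-number differences), or 7.77-fold lower in light. By mean intensity the probe held place 24 of the array in the dark and place 356 in light.

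AT3G09080, also without a descriptive name, had dark intensities from 2.66 through a median of 3.21 to 3.76. In light they ran from 0.618 through 0.664 to 0.705. No light value came near a dark one, and the log2 difference was -2.51 ± 0.27 (SD, n = 6 differences). The probe went from place 117 of the array to place 1788, from well above to just below the middle of all 3439 probes.

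AT1G03810 likewise has no descriptive name in the table. Its intensities ran from 4.84 through 5.84 to 8.30 in the dark, and from 0.969 through 1.25 to 1.42 in light. On the normalized log2 scale its dark samples had an SD of 0.26, against 0.16 in AT1G62250, and the lowest dark value was above every light value. The log2 difference was -2.36 ± 0.31 (SD, n = 6 differences).

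AT4G31470 is the one measured gene of a list of 22 PR-1-like CAP proteins. That list was written from general knowledge, since the table names this locus only by its number. CAP proteins are secreted proteins, and the best known of them in plants, PR-1, accumulates during defence. AT4G31470 had dark intensities from 4.74 through 5.31 to 5.41 and light intensities from 1.31 through 1.45 to 1.68. Its dark samples were among the most alike of the 27, with an SD of 0.07 on the normalized log2 scale. The log2 difference was -1.82 ± 0.13 (SD, n = 6 differences).

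AT1G21660 is the one measured gene of a list of 7 auxilin-like J-domain proteins, written in the same way. Auxilin strips the clathrin coat from vesicles in animals and yeast, and JAC1, a plant relative on the same list, is needed for chloroplast movement in response to light. AT1G21660 had dark intensities from 2.90 through 3.11 to 4.23 and light intensities from 0.932 through 1.01 to 1.18. The groups did not overlap. At -1.85 ± 0.06 (SD), its 6 same-number differences were the most uniform of all 27 genes. A list with 1 measured member says nothing about its family.

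TPP2 (AT4G20850) is tripeptidyl peptidase II, a serine protease that cuts tripeptides from the ends of peptides released by the proteasome. It had dark intensities from 0.494 through 0.539 to 0.631 and light intensities from 0.199 through 0.270 to 0.299. By mean intensity it held place 1452 of the array in the dark and place 2984 in light. The groups did not overlap, and no value was at the floor. The log2 difference was -1.55 ± 0.22 (SD, n = 6 differences).

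AT4G30740 and AT1G15140 held places 1157 and 1363 of the array in the dark and places 3023 and 2991 in light. AT4G30740 had dark intensities from 0.517 through 0.612 to 0.798 and light intensities from 0.199 through 0.244 to 0.318, with a log2 difference of -1.88 ± 0.16. AT1G15140 had dark intensities from 0.500 through 0.604 to 0.639 and light intensities from 0.192 through 0.265 to 0.313, with a log2 difference of -1.65 ± 0.22 (SD, n = 6 differences each). In neither gene did a light value reach the lowest dark value.

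Among the genes outside the 8 largest differences, the brightest in the dark was AT2G33180. Its intensities ran from 6.09 through 7.77 to 10.9 in the dark and from 2.24 through 2.91 to 3.76 in light, and its log2 difference was -1.32 ± 0.19 (SD, n = 6 differences). In light it was the brightest of the 27, at place 128 of the array, after place 41 in the dark. AT2G37510 ran from 2.84 through 3.71 to 5.24 in the dark and from 1.68 through 1.72 to 1.89 in light. Its light values were closely grouped, and its log2 difference was -1.16 ± 0.17 (SD, n = 6 differences). AT4G27390 ran from 2.04 through 2.94 to 3.04 in the dark and from 1.03 through 1.09 to 1.23 in light, with a log2 difference of -1.49 ± 0.25 (SD, n = 6 differences). The groups of these 3 genes did not overlap.

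UBA1A (AT2G22090) encodes a nuclear RNA-binding protein that associates with UBP1, an oligouridylate-binding protein of pre-mRNA and mRNA. Its dark intensities were 0.612 at the lowest, 0.754 at the median and 0.979 at the highest. Its light intensities were 0.436, 0.467 and 0.479. The groups did not overlap, and the light samples were nearly alike, with an SD of 0.04 on the normalized log2 scale against 0.28 in the dark. The log2 difference was -1.19 ± 0.25 (SD, n = 6 differences).

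CBL (AT3G57050) is cystathionine beta-lyase, the plastid enzyme that makes homocysteine from cystathionine on the way to methionine. Its dark intensities in samples 1 to 6 were 0.314, 0.0490, 0.810, 0.760, 0.826 and 0.921. Its light intensities were 0.171, 0.0126, 0.563, 0.442, 0.446 and 0.471. Samples 1 and 2 were low in both groups, and the groups overlapped. Number 2 was at the floor in both groups, so its difference of 0.25 measures only the floors of the columns. The other 5 differences lay between -1.39 and -0.98. The mean of -1.01 ± 0.64 (SD, n = 6 differences) is the smallest of the 27 and rests on the floor. It was -1.23 without numbers 1 and 2, -0.97 without numbers 3 and 4, and -0.84 without numbers 5 and 6.

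AT3G51500 showed the same kind of dependence on the sample number. Its dark intensities in samples 1 to 6 were 3.03, 3.19, 0.318, 0.328, 2.34 and 2.30. In light they were 1.48, 1.76, 0.0542, 0.154, 1.21 and 1.45. Numbers 3 and 4 were low in both groups, and both of their light values were at or below the floor. Averaged over both groups, the normalized log2 level was 1.08 in numbers 1 and 2, -2.09 in numbers 3 and 4, and 0.78 in numbers 5 and 6. That range of 3.17 exceeded its light minus dark difference of -1.08 ± 0.22 (SD, n = 6 differences). The difference was between -1.32 and -0.78 in every number, but in numbers 3 and 4 its size was set by the floor of the light values. The mean was -0.97 without numbers 3 and 4. With the floor at the 1st percentile the mean was -1.38, and with the floor at the 10th it was -0.90, which misses the threshold.

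These were the only 2 of the 27 whose level moved by more than 1 on the log2 scale between number pairs. That share, 2 of 27 or 7.41%, was close to the 7.15% of all probes (246 of 3439). They were also the only 2 of the 27 with a value at the floor. Such a value was found in 681 of 3439 probes, and in 29 of the 464 other single-gene probes above the level threshold. The level threshold itself leaves out probes whose mean lies near the floor. The median range over number pairs was 0.33 for the 27 genes and 0.36 for all probes. After AT3G51500 and CBL the widest range was that of AT5G48440, at 0.77. The range was 0.11 in AT1G62250 and 0.12 in AT3G09080, the narrowest of the 27.

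Groups that do not overlap in the deposited values were found in 24 of the 27 genes, the exceptions being AT5G48440, AT3G51500 and CBL. Such a pattern, every light value under every dark value, was shown by 9.62% of all probes and by 8.09% of the probes that name 1 gene. After normalization AT5G48440 no longer overlapped, which made 25 of 27 against 19.7% of all probes. All 6 same-number differences were negative in 26 of 27 genes, the exception being CBL, against 27.9% of all probes. The rule used the same contrast, so these counts describe the choice.

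The other genes were 11, all known to the table only by locus number: AT5G48440, AT2G06040, AT1G76450, AT2G04700, AT4G35980, AT4G20690, AT2G48130, AT2G36480, AT4G26370, AT4G01810 and AT4G05070. Their log2 differences ran from -1.36 in AT5G48440 and AT2G06040 to -1.08 in AT4G05070. Of the 11, 6 had a mean dark intensity between 0.459 and 0.625. Among these 6, AT2G36480 had dark intensities from 0.489 through 0.561 to 0.611 and light intensities from 0.332 through 0.345 to 0.392. The 0.392 is light sample 5, flagged below as extreme. AT4G20690 was the brightest of the 11 in the dark, at 1.45 ± 0.276 (SD, n = 6), against 0.783 ± 0.0647 in light (SD, n = 6).

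Of the 27 genes, 3 carry a symbol other than the locus number, against 93 of the 692 probes that name 1 gene. No member matched the table's words for chaperones (3 measured genes), oxidoreductases (7), kinases (2), transferases (3) or synthases (2). The 2 kinases were AT4G15530 at -0.56 and PRK at -1.12, and PRK met the thresholds but was left out by name. TPP2 was 1 of 2 measured genes with a protease word, and the other, AT1G73990, had a log2 difference of -0.07. Words for ribosomal proteins, transporters, nucleic acid binding and pentatricopeptide proteins matched no measured gene. The words were sought only in symbols and synonyms and missed the RNA-binding protein UBA1A. The chaperone words, which included DnaJ, also missed AT1G21660, listed above among J-domain proteins. No match therefore does not mean that no such gene was measured or is a member. A list of 14 genes known to be induced in the dark, among them those of amino acid breakdown, had 1 measured gene, AT2G43400, with a log2 difference of 0.44. Genes that matched had median differences of -0.84 (kinase words), -0.18 (chaperone), -0.10 (transferase), 0.12 (synthase) and 0.31 (oxidoreductase). The median over all probes was 0.01. Each word median rests on few genes, and the 7 matched as oxidoreductases ran from -0.89 to 2.91. Most members carry only a locus number and could not match by symbol, so these are not medians of the protein classes. Most members could not be placed in a pathway from these names.

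The members nearest to the difference threshold were AT3G51500 at -1.08, AT3G46950 at -1.02 and CBL at -1.01. AT3G46950 had dark intensities from 0.665 through 0.920 to 1.04 and light intensities from 0.480 through 0.625 to 0.653, with same-number differences that varied by an SD of 0.07. Just outside lay PSAN, a subunit of photosystem I, at -0.99, AT4G23110 at -0.96 and AT2G03390 at -0.95. PSAN was far brighter, with a dark intensity of 6.55 ± 1.73 (SD, n = 6) and a light intensity of 2.97 ± 0.298 (SD, n = 6). Nearest to the level threshold of -1.47 were AT4G26370 at -1.42, AT4G35980 at -1.40 and TPP2 at -1.38 (mean normalized log2 level). AT4G26370 had dark intensities from 0.358 through 0.459 to 0.610 and light intensities from 0.255 through 0.301 to 0.322. AT4G35980 had dark intensities from 0.404 through 0.465 to 0.589 and light intensities from 0.236 through 0.294 to 0.349. Just below the level threshold lay AT4G05030 at -1.47, AT4G30680 at -1.55 and AT1G09200 at -1.69, whose log2 differences were -1.58, -1.44 and -1.22. The boundary thus falls between genes that differ little.

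Whether the size of the difference varied between the 3 pairs of consecutive numbers was tested, since the mean difference used by the rule does not fix it. Samples of the same number, and of consecutive numbers, resembled each other, and the labels do not say what a number stands for. Medians of the 27 differences were -1.37 in numbers 1 and 2, -1.25 in numbers 3 and 4, and -1.38 in numbers 5 and 6. In 14 genes the largest difference was in numbers 1 and 2, in 6 in numbers 3 and 4, and in 7 in numbers 5 and 6. These are 51.9%, 22.2% and 25.9% of the 27, against 35.2%, 29.8% and 35.0% of all probes for the lowest of the 3 differences. The median range over the 3 pairs was 0.37 for the 27 genes, 0.50 for all probes and 0.63 for 57 single-gene probes at least doubled in light by the mirrored rule.

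The limma F-test of number pair on the 6 same-number differences called 2 of the 27 genes at an adjusted p under 0.05, or 7.41%, against 667 of 3439 probes, or 19.4%. AT2G40980 had a difference of -0.70 in numbers 1 and 2, of -1.39 in numbers 3 and 4 and of -1.43 in numbers 5 and 6 (limma adjusted p = 0.0282). Its dark intensities in samples 1 to 6 were 2.78, 2.33, 4.24, 4.34, 3.55 and 3.70, and its light intensities were 1.64, 1.59, 1.69, 1.68, 1.33 and 1.40. The dark values were lowest in numbers 1 and 2, whereas the light values were lowest in numbers 5 and 6. AT3G09080 had a difference of -2.84 in numbers 3 and 4, against -2.40 and -2.28 in numbers 1 and 2 and in numbers 5 and 6 (limma adjusted p = 0.0491). The count of members called depended on the fit, at 7 without the replicate number as a block, where 20.4% of all probes were called, and 6 with arrays centred on the median, where 22.8% were called. AT2G40980 was called in each of the 7 fits run, and AT3G09080 was not called as deposited or with centred arrays. As deposited 3 of the 27 were called, against 20.8% of all probes, and with loess 6 of 27, against 19.8%. Over these fits the members' share lay on both sides of that of all probes, so no difference from the other probes is read from it. The rule asked for a negative difference in every pair, although the same 27 genes met it without that condition. The p-values measure the spread between 2 consecutive numbers, which may be repeat readings.

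**Figure D3:**
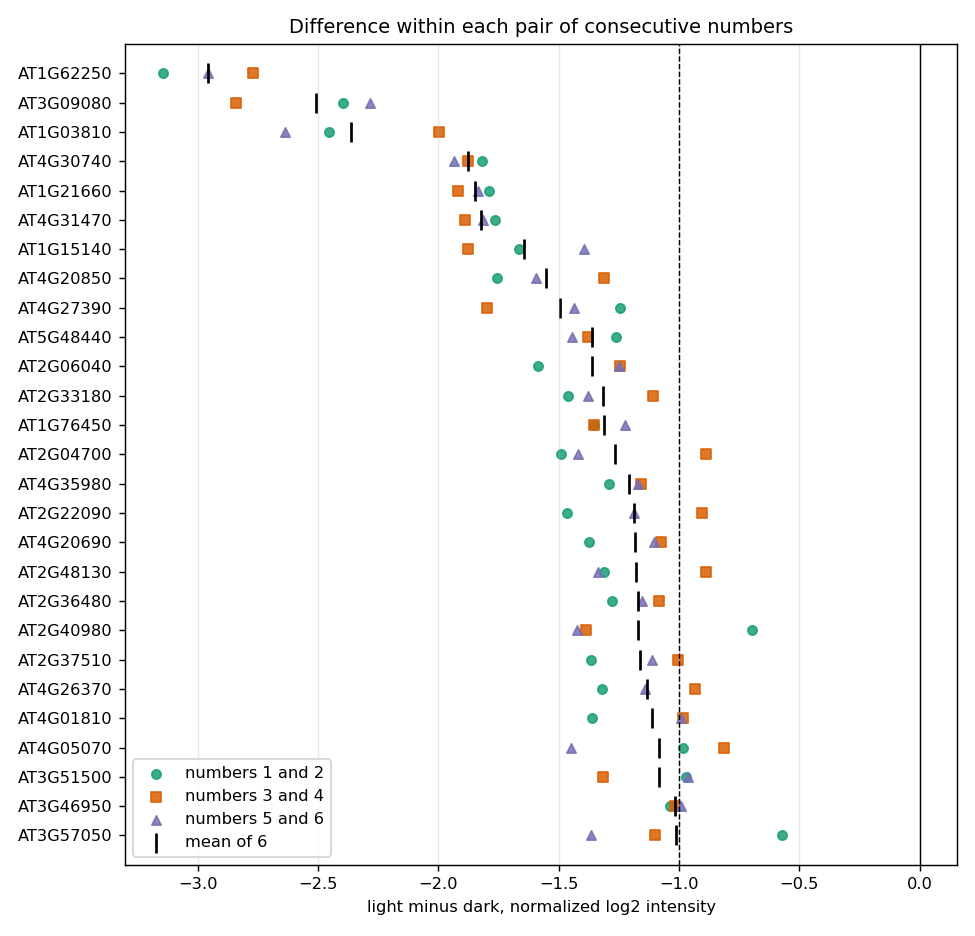
Light minus dark difference (normalized log2 intensity) of each of the 27 genes within numbers 1 and 2 (circles), 3 and 4 (squares) and 5 and 6 (triangles), with the mean of 6 same-number differences as a bar. The solid line marks 0 and the dashed line the threshold of -1. AT2G40980 and CBL show the smallest difference in numbers 1 and 2, at -0.70 and -0.57.

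The spread between samples was smaller in light than in the dark for 20 of the 27 genes, or 74.1%, as for 78.1% of all probes. The median SD of the normalized log2 values was 0.22 in the dark and 0.16 in light for the 27, against 0.30 and 0.18 over all probes. No value of the 27 genes was listed at 0.

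The scaling of the arrays moved the sizes but no sign, in genes chosen for a difference of -1 or lower. As deposited, 12 of the 27 differences were at -1 or lower, where 2.75% of the probes that name 1 gene were. With centred arrays all 27 were, against 9.97%, and with cyclic loess 24 were, against 6.36%. After quantile normalization 7.23% of the probes that name 1 gene had such a difference. The genes at -1 or lower under all 4 scalings were 9: AT1G62250, AT3G09080, AT1G03810, AT4G30740, AT1G21660, AT4G31470, AT1G15140, TPP2 and AT4G27390. They are also the 9 largest differences after quantile normalization. As deposited, the median difference of the 27 was -0.91 while that of all probes was 0.44. The genes closest to 0 as deposited were CBL at -0.56, AT3G46950 at -0.58 and AT4G26370 at -0.62. AT2G33180, AT2G37510 and AT2G40980 depended on the scaling in another way and missed -1 only with loess. AT2G33180 stood at -1.42 as deposited, -1.95 with centred arrays and -0.87 with loess. AT2G37510 stood at -1.12, -1.66 and -0.89, and AT2G40980 at -1.14, -1.68 and -0.99. AT1G62250 was likewise nearest to 0 with loess, at -2.49.

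**Figure D4:**
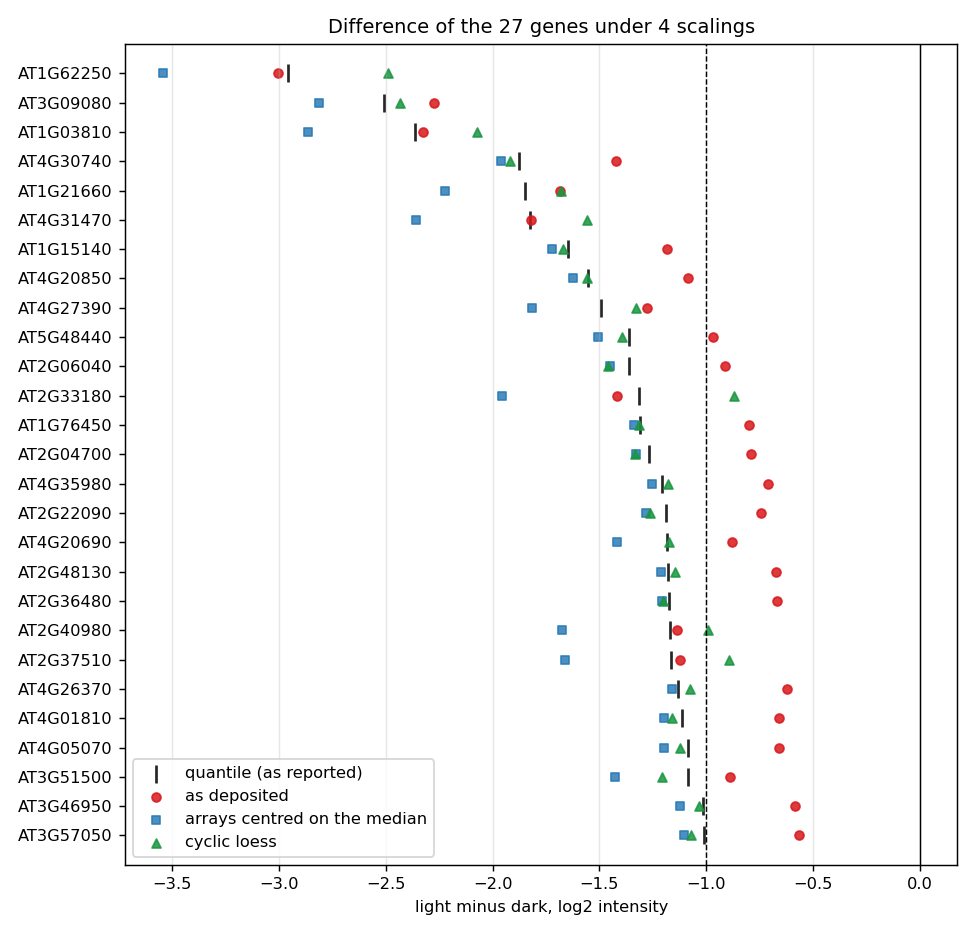
Light minus dark difference (log2 intensity) of the 27 genes under 4 scalings: quantile normalization (black bars), values as deposited (red circles), arrays centred on their median (blue squares) and cyclic loess (green triangles). The solid line marks 0 and the dashed line -1. Every value is below 0, and 9 genes lie at or below -1 under all 4 scalings.

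By the order of protein-coding genes in the TAIR10.1 table, 7 of the 27 had another singly measured gene within 5 places, with 8 such neighbours in all. Of these 5 had a negative and 3 a positive log2 difference, with a median of -0.29. The lowest was AT4G05030, near AT4G05070, at -1.58, followed by AT4G20820, near TPP2, at -0.93. Both neighbours within 3 places had a positive difference. AT3G51510, directly next to AT3G51500, stood at 0.234 ± 0.0603 (SD, n = 6) in the dark and at 0.786 ± 0.0384 (SD, n = 6) in light. Its log2 difference was 1.28. AT2G48120, with 1 gene between it and AT2G48130, had a log2 difference of 0.27. AT3G51500 and AT2G48130 themselves stood at -1.08 and -1.18.

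Probe numbers, which the rule did not use, were not spread evenly. Of the 27 probes, 9 had numbers from 3001 to 3500, where 81 of the 692 single-gene probes lie, and 4 had numbers from 3245 to 3263. Within that stretch of 15 probes, 1 probe that did not meet the rule had a difference of -1 or lower, and the median of such probes was 0.18. Members with adjacent numbers were AT4G35980 and AT4G01810, and AT2G36480 and AT3G46950. Over all members together, probes that did not meet the rule, named or not, were lower in light near a member than elsewhere. Within 5 probe numbers of a member, 29 of 172 such probes, or 16.9%, had a difference of -1 or lower, against 6.77% of the 3234 others. Their median differences were -0.33 and 0.03. Beyond 60 probe numbers the share was 4.49% and the median 0.11. The difference in medians was -0.37, and it was -0.19 within 2 probe numbers, -0.31 within 12, -0.31 to -0.35 with each number pair left out and -0.29 as deposited. What a probe number stands for (a position on the membrane, a plate or a clone order) is not given in the sources used here, and its part in the differences was not tested.

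**Figure D5:**
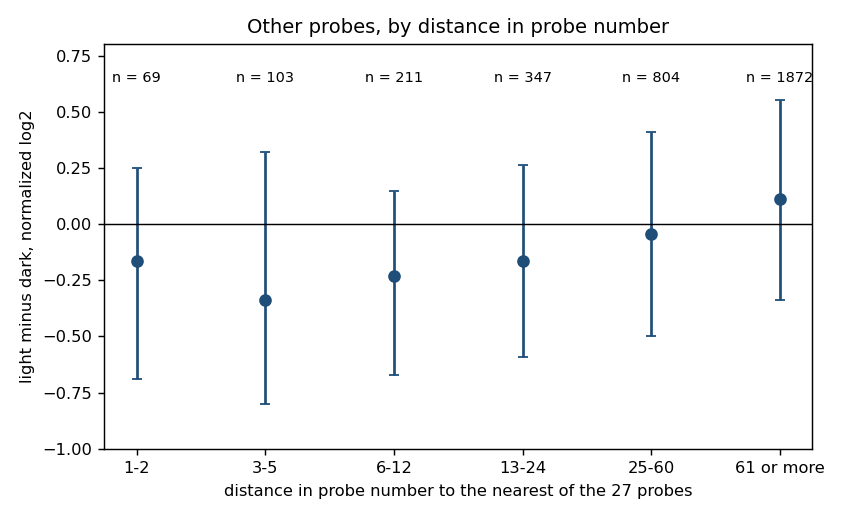
Light minus dark difference (normalized log2 intensity) of probes that did not meet the rule, by distance in probe number to the nearest of the 27 probes. Points are medians, bars span the 25th to the 75th percentile, and the number of probes stands above each. The median is -0.34 at a distance of 3 to 5 and 0.11 at 61 or more.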

How the data were processed

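RNA of 6 dark and 6 light samples was measured on an array of 3439 probes. The authors deposited linear intensities between 0 and 100. How these were scanned, background-corrected and scaled is not given in the sources used here. Precision is limited by the 12 samples. The annotation named 1 gene for 692 probes, 690 of which matched a TAIR10.1 table by gene identifier. Columns were quantile-normalized, values under the 5th percentile of each column (taken over its positive values) were set to it as a floor before taking log2 (limma 3.58.1, R 4.3.3).

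The members and gene lists were chosen with earlier results of these data known. All 27 members are named. Lowest, median and highest intensities are given for the 8 largest differences and the 4 highest dark levels outside them (AT4G27390 is the lowest of these). They are also given for members with a descriptive name, members called between number pairs, and those nearest a threshold. For CBL, AT3G51500 and AT2G40980 the values by sample are given instead. AT5G48440, AT4G20690, AT2G36480 and the neighbouring genes were singled out after their values were seen. Protein and promoter features that had been planned were not analysed here.

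Variation between number pairs was tested with lmFit and eBayes on the 6 same-number differences of all 3439 probes, with Benjamini-Hochberg adjustment. The fit was tested on data simulated with independent noise in the 6 differences. That simulation does not cover correlation between consecutive numbers, so it says nothing about error rates under such correlation. Dark and light samples sharing a number correlated at 0.41 to 0.65 in their deviations from the group mean, above the 0.1 taken to show pairing. For consecutive numbers the values were 0.42 to 0.60 among dark samples and 0.36 to 0.47 among light samples. Groups and numbers were taken from the titles. Alternatives were other scalings, floors, level filters and left-out number pairs.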

Additional observations from a re-analysis of the deposited data

Results flagged for a closer look

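Among 54 groups of 6 values (27 genes in dark and in light), 1 extreme sample was found. Chance gives 1 group in 20 for independent values, but consecutive numbers were correlated, so the 2 rates cannot be compared. In light sample 5 the normalized log2 value of AT2G36480 was -1.57, whereas the remaining 5 light samples ranged from -1.85 to -1.74.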

How the results depend on the processing

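All 27 differences stayed negative under the 3 other scalings, the other floors, the pseudocount and with each number pair left out. The rule asked for a negative difference in every pair, so with a pair left out the sign was fixed by the choice. Under the other settings the kept sign is a description, since the genes were chosen for a difference of -1 or lower. As deposited, 13 single-gene probes met the rule, 12 of them among the 27, the median difference of the 27 was -0.91, and 12 stayed at -1 or lower. With centred arrays 43 met it, all 27 included, with a median of -1.45. A pseudocount of 0.1 in place of the floor gave 20 probes and a median of -1.12. Without the level filter 42 met the rule, and with a filter at the median of all probes 16. With a number pair left out, 26 to 32 probes met the rule, the median of the 27 was -1.33 to -1.23, and 25 or 26 stayed at -1 or lower; AT4G01810, AT4G05070, AT3G51500 and CBL each missed it once or more. The fit without the replicate block called 700 probes between number pairs, against 667 with it, and 7 of the 27 genes against 2. Members called were 3 as deposited (20.8% of all probes called), 6 with centred arrays (22.8%), 6 with loess (19.8%), 4 with the pseudocount (14.0%) and 6 when only the 2579 probes above the 25th percentile were tested (29.5%). For probes near members in probe number, the difference in medians was -0.37, against -0.19 within 2 numbers, -0.31 within 12, -0.29 as deposited and -0.29 with centred arrays, and -0.35 to -0.31 with a number pair left out; these alternatives were chosen after seeing the data. The cause of these shifts was not tested. Genes that were dim in light limit the depth of the comparison, as their light values lie close to the floor.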

Other observations

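Over all probes, the light minus dark differences of probes 6 numbers apart correlated at 0.27 (Pearson, 2822 pairs), against 0.14 to 0.17 at distances of 1 to 5. At 12 numbers apart the correlation was 0.24. Over distances up to 60, multiples of 6 had a median correlation of 0.13 and other distances one of 0.08. These are correlations across probes of the same 12 arrays, which are not independent replicates.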
